A study of Mus musculus with 19 samples.

Results

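Conventional dendritic cells type 1 (cDC1) were examined in single cell libraries of the tissue around the tenotomy site of mice that form heterotopic bone after burn/tenotomy. The cells were selected on their transcripts, and no cluster was used. A barcode had to hold a UMI (unique molecular identifier, 1 counted transcript) of Xcr1 or Clec9a, a UMI of at least 2 of Xcr1, Clec9a, Flt3 and Itgae, at least 3 UMIs of H2-Ab1 and none of Cd209a. Barcodes under 500 genes or above 25% mitochondrial UMIs were left out first, and 201 of the 39541 that remained met these criteria.

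The 19 libraries came from 5 groups. Day 0 (4 libraries) was harvested before injury, although its labels list the burn. Day 3 (3 libraries), day 7 (4 libraries) and day 21 (4 libraries) followed a dorsal burn of 30% of the body surface with transection of the Achilles tendon. The p7N3 group (4 libraries) had the same injury, received p7N3, a peptide that activates CD47, by intraperitoneal injection of 10 mg/kg each day for 3 days before and 3 days after injury, and was harvested at day 7, a day that the labels of p7N3 replicate 4 leave out. A vehicle is not given in the labels of the day 7 group without peptide. The study names PBS as the control treatment beside the peptide, and no library is labelled with it. C57 mice and LysmCre/Tgfb1fx/fx mice, in which the myeloid promoter of Lysm drives deletion of Tgfb1, are named for every sample together, and no library is tied to either. Genotype could therefore not be compared. The study describes young adult male mice. According to the study the single cell experiments were repeated to cover the variability between mice, while no label ties a library to an animal, so that the p-values measure the spread between libraries.

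Dendritic cells take up antigen in tissue and present it to T lymphocytes. The type 1 lineage depends on the transcription factors IRF8, BATF3 and ID2 and on the growth factor FLT3 ligand. It takes up material from dying cells and is known for presenting it on MHC class I to CD8 T lymphocytes, which is called cross-presentation. XCR1 is the receptor for a chemokine made by T and NK lymphocytes, CLEC9A binds actin exposed by dead cells, ITGAE is the integrin chain CD103, H2-Ab1 encodes an MHC class II chain and Cd209a marks other dendritic cells.

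In the mm10 genome Xcr1 lies at chr9:123852315-123862029 on the minus strand, Clec9a at chr6:129408862-129424763 on the plus strand, Flt3 at chr5:147330741-147400489 on the minus strand and Itgae at chr11:73090583-73147446 on the plus strand. Wdfy4, a marker not used for selection and a gene required for cross-presentation of cell-associated antigen, lies at chr14:32959547-33185508 on the minus strand. The positions span the whole annotated gene, and the counts do not tell exons apart.

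Day 0 gave 3, 1, 1 and 1 members. Day 3 gave 17, 16 and 3, day 7 gave 30, 12, 20 and 17, day 21 gave 0, 2, 6 and 6, and p7N3 gave 21, 23, 8 and 14. The members had a median of 10417 UMIs, against 8199 UMIs over all kept barcodes. Only 9 libraries held at least 10 members (day 3 replicates 1 and 2, all of day 7, and p7N3 replicates 1, 2 and 4), and the transcript comparisons below use the UMIs summed over the members of these libraries, 125167 to 335506 UMIs per library. The 6 members of day 0 summed to 55144 UMIs, so that 1 UMI there was worth 18.1 CPM (UMIs scaled to a common total per library). No barcode was a member in more than 1 library, and 6 member barcodes were kept as a cell in another library as well.

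Each of the selecting transcripts was sparse. Flt3 was found in 175 members (87.1%), Clec9a in 158 (78.6%), Xcr1 in 126 (62.7%) and Itgae in 115 (57.2%), with medians of 2, 1, 1 and 1 UMIs. All of the 4 were present in 45 members, 3 in 82 and 2 in 74. The most frequent sets beside the complete one were Clec9a with Flt3 (36 members), Clec9a with Flt3 and Itgae (34), Xcr1 with Clec9a and Flt3 (21) and Xcr1 with Flt3 (21).

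Wdfy4 was detected in 168 members (83.6%), with a median of 3 UMIs. It was detected in 20.2% of Cd209a cDC2, 14.7% of cells selected as MHC class II macrophages and 0.838% of endothelial cells. Endothelial cells should lack the gene. Median H2-Ab1 was 161 UMIs per member. The lowest members had 3, 3, 3, 7, 10, 11, 16 and 27 H2-Ab1 UMIs and the next had 47. The 6 barcodes that failed only on H2-Ab1 had no Wdfy4. The 62 barcodes with only 1 of the 4 markers had Wdfy4 in 32.3% and a median of 19 H2-Ab1 UMIs. The 21 barcodes that failed only on a Cd209a UMI had Wdfy4 in 33.3%, and 9 of them had a single Cd209a UMI. A further 30 barcodes with Flt3 and Itgae but neither Xcr1 nor Clec9a had Wdfy4 in 83.3% and a median of 155.5 H2-Ab1 UMIs, both close to the members.

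The membership was not uniform. Of the 201 members, 14 held many UMIs of genes of another cell type, and these were picked out after their values were seen. The collagen gene Col1a1 had 98 to 726 UMIs in 7 of them, against at most 16 in every other member. The complement genes C1qa, C1qb and C1qc had 20 to 154 UMIs together in 5, Siglech, a marker of plasmacytoid dendritic cells, had 8 to 20 UMIs in 3, and the globin gene Hba-a1 had 1058 UMIs in 1. The sets overlap. These 14 had a median of 18828 UMIs, against 10300 in the other 187.

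At day 3 the influence of these barcodes on the sums was large. A single barcode of 64220 UMIs, with 275 Col1a1 and 16 H2-Ab1 UMIs, gave 22.8% of the UMIs of day 3 replicate 1, and one of 37159 UMIs, with 386 Col1a1 and 11 H2-Ab1 UMIs, gave 15.9% of day 3 replicate 2. In all, the barcodes with genes of another cell type gave 25.1% and 19.04% of the day 3 sums, 4.95%, 15.8%, 19.6% and 19.5% of the day 7 sums, and 5.49%, 0% and 13.9% of the p7N3 sums. All 5 such barcodes of day 3 are among the 8 members with the least H2-Ab1. The counts of genes that passed are given with and without them.

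**Figure D1:**
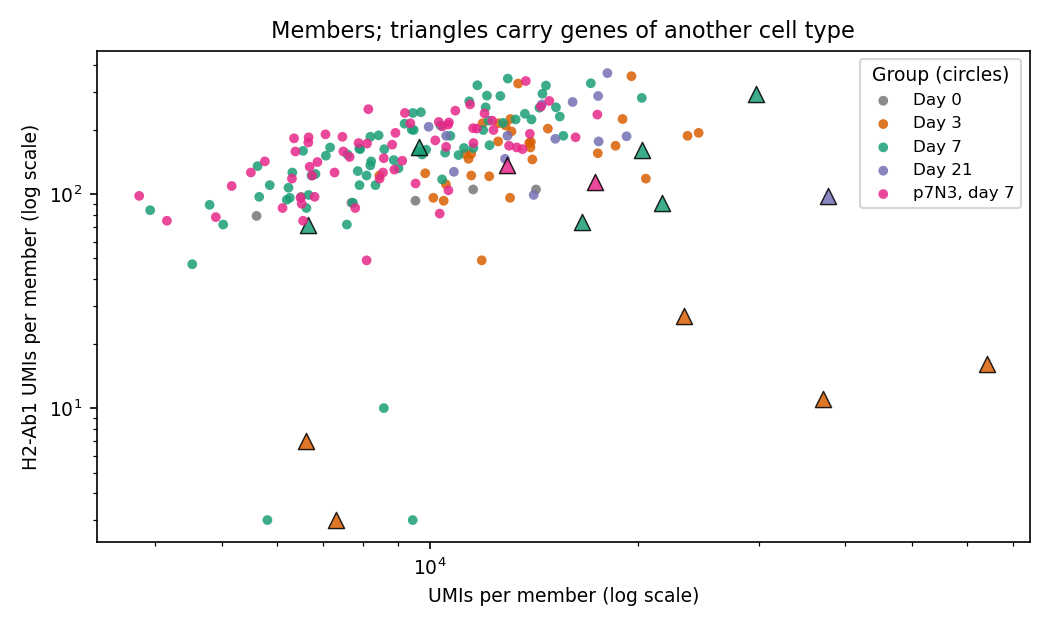
UMIs (x axis, log scale) and H2-Ab1 UMIs (y axis, log scale) of each of the 201 members, coloured by group, with triangles for the 14 members that hold many UMIs of another cell type's genes. The day 3 triangles lie at 3 to 27 H2-Ab1 UMIs, below a median of 161 over all members.

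The complement transcripts of macrophages were found in most day 3 members and in most endothelial cells of the same libraries. At least 3 C1q UMIs were found in 82.4%, 93.8% and 100% of the members of the 3 day 3 libraries, and in 81.0%, 95.8% and 95% of their endothelial cells (21, 24 and 20 cells). At day 7 the share was 5.88% to 15% of members and 5.0% to 15.3% of endothelial cells. Deeper cells pass a fixed cut more easily, so these shares do not compare levels. At day 3 the endothelial cells were the deeper set, with 655797, 546142 and 593316 UMIs in 21, 24 and 20 cells. The 17, 16 and 3 members had 281744, 233614 and 59213 UMIs. The summed level of 6 neutrophil markers without the 14 barcodes was 1389 ± 32.6 CPM (SD, n = 2) at day 3 and 86.1 ± 11.8 CPM (SD, n = 4) at day 7, with S100a8 and S100a9 the most abundant and Ly6g at 0 in both day 3 libraries. In endothelial cells it was 1328 ± 91.1 and 83.0 ± 37.0 CPM. The 8 macrophage markers, led by Apoe, summed to 1546 ± 476 CPM at day 3 and 348 ± 85.0 CPM at day 7 without the 14 barcodes, and to 1463 ± 321 and 704 ± 264 CPM in endothelial cells. The 6 stromal markers summed to 6316 ± 936 CPM at day 3 and 5428 ± 3057 CPM at day 7 with all members, and to 1433 ± 725 and 1115 ± 134 CPM without the 14 barcodes. The 6 monocyte markers summed to 3161 ± 149 CPM at day 3 and 1590 ± 472 CPM at day 7 without the 14 barcodes. In endothelial cells they summed to 1166 ± 82.5 and 967 ± 390 CPM. The 5 erythrocyte markers summed to 755 ± 585 and 196 ± 63.7 CPM without the 14 barcodes, and to 1834 ± 2054 and 1623 ± 1266 CPM in endothelial cells. Endothelial levels of day 3 are therefore given beside the CPM of genes that fell by day 7, where CPM are printed. Of the T and NK lymphocyte markers listed, 5 were among the counted genes, and the rest could not be read. These 5 were all at 0 in the 6 day 3 and day 7 sums. In the p7N3 sums they had 68.0 CPM (Nkg7 42.5, with Klrb1c and Gzma at 0), 5.19 and 0 CPM.

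Transcripts of the cDC1 lineage that were not used for selection were also abundant. The cells were set beside Cd209a cDC2 of the same 9 libraries (1179 cells in all libraries, with at least 2 Cd209a UMIs and no Xcr1 or Clec9a), as a description without a test because the selection separates the sets. Irf8 had 1510 ± 468 CPM in cDC1 and 170 ± 100 CPM in cDC2 (mean ± SD, n = 9). Of the 1179 cDC2, 226 met the criteria for genes of another cell type that picked out the 14 barcodes, 48 of them by Siglech. Without these in either set Irf8 had 1633 ± 502 CPM in cDC1 and 56.6 ± 25.2 CPM in cDC2, and the mean log2 ratio was 4.65 in place of 3.20. The inhibitor of DNA binding Id2 had 1569 ± 373 and 148 ± 35.6 CPM. Batf3 had 181 ± 56.0 and 35.0 ± 17.2 CPM. Naaa, a lysosomal amidase, had 1312 ± 369 and 138 ± 29.1 CPM, and Wdfy4 had 254 ± 69.3 and 29.9 ± 4.37 CPM. Each of the 5 genes was higher in cDC1 in 9 of 9 libraries.

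Of 18 cDC1 lineage genes, 16 reached a mean of 20 CPM in either set, and 14 of the 16 were at least 4-fold higher in cDC1 and higher in every library. Over all 5276 genes at this level, 29 (0.55%) were so much higher and 86 (1.63%) so much lower. The list gave the same counts without such barcodes in either set, and 40 (0.796%) and 111 (2.21%) of 5024 genes did. The exceptions in the list were the integrin Itgax, at 29.0 ± 19.3 CPM in cDC1 and 63.4 ± 14.4 CPM in cDC2 and higher in cDC1 in 1 of 9 libraries, and the transcription factor Zbtb46, at 26.9 ± 16.2 and 10.2 ± 4.77 CPM and higher in 7. Tlr12 and Ly75 had means of 5.87 and 14.1 CPM in cDC1.

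Of the 20 genes that stood highest above cDC2, 12 belong to the lineage list, which was chosen with earlier results known. They began with Ifi205 (658 against 30.4 CPM), Gcsam (142 against 0.138 CPM), Plet1 (207 against 4.01 CPM) and Cd24a (779 against 66.3 CPM). They went on with Id2, Irf8, Rab7b, Naaa, Sept3, Snx22, Wdfy4, A530099J19Rik, Cst3, Gatm, 2310031A07Rik, Ppt1, Mycl, Btla, Tlr3 and Ncoa7. The 8 outside the list were Plet1, Sept3, A530099J19Rik, Cst3, Gatm, 2310031A07Rik, Mycl and Ncoa7. Cst3, the protease inhibitor cystatin C, was the most abundant of the 20 at 18997 ± 5333 CPM, against 3103 ± 588 CPM in cDC2. The genes lowest beside cDC2 were the C-type lectins Mgl2 (7.98 against 383 CPM), Clec10a (14.1 against 447 CPM) and Cd209d (1.16 against 247 CPM).

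**Figure D2:**
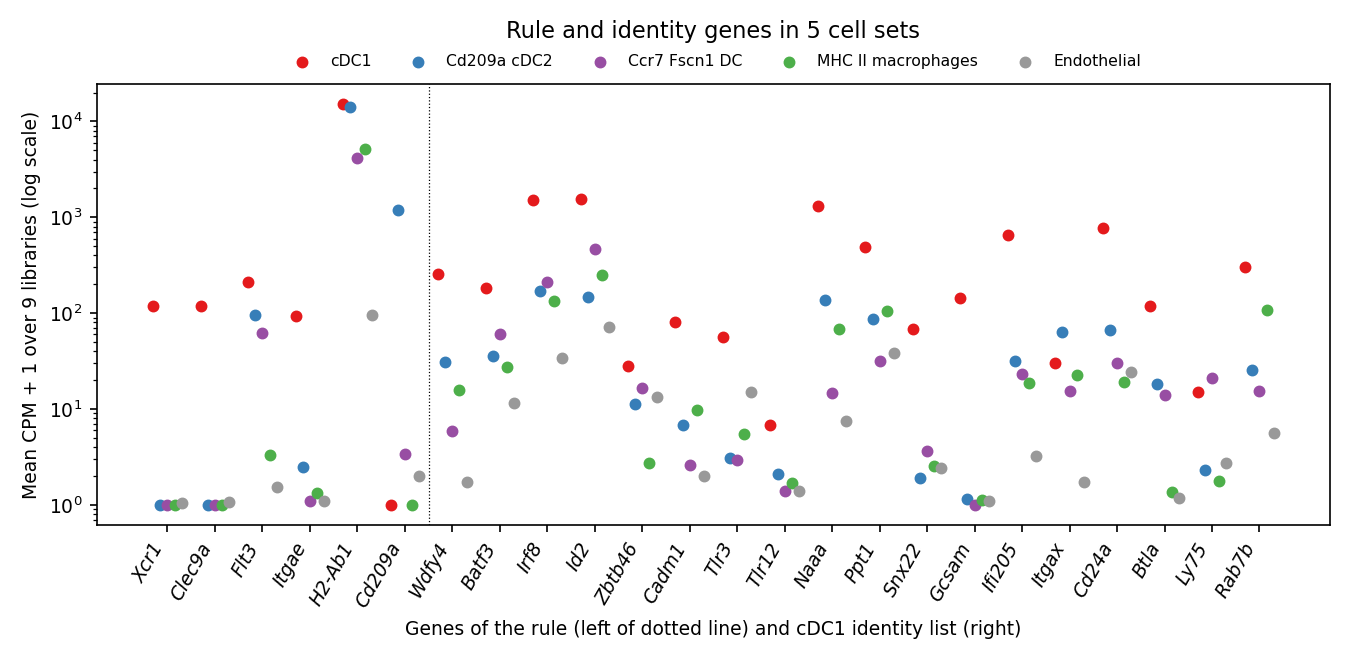
Mean CPM plus 1 over 9 libraries (y axis, log scale) of the selecting genes, left of the dotted line, and the cDC1 lineage genes, right of it, in 5 cell sets. Irf8, Id2 and Naaa lie at 1312 to 1569 CPM in cDC1 and at no more than 461 CPM in the other sets, and Itgax lies higher in cDC2.

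The other gene groups were read against all 5276 genes, of which 341 (6.46%) were higher and 595 (11.3%) lower than in cDC2 in every library. Of 13 MHC class II genes, 2 were higher and 3 lower in every library, with a median log2 ratio of -0.05 (all genes -0.09). Of 19 MHC class I and cross-presentation genes at 20 CPM, 9 were higher and 4 lower in every library, with a median of 0.07. Of 12 maturation genes at 20 CPM, none was higher and 3 were lower than cDC2 in every library. The 3 were the costimulatory receptor Cd40 (24.0 against 51.5 CPM), the costimulatory ligand Icosl (13.2 against 36.3 CPM) and Marcksl1 (171 against 365 CPM). Of 14 receptors, 2 were higher and 8 lower in every library, and of 10 interferon-stimulated genes none was higher and 5 were lower. The lists without such barcodes in either set gave 1 higher and 5 lower (MHC class II), 9 and 4 (MHC class I), 0 and 4 (maturation), 1 and 8 (receptors) and 0 and 5 (interferon-stimulated), against 385 (7.66%) and 625 (12.4%) of 5024 genes.

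Ccr7, the receptor that guides mature dendritic cells to lymph nodes, was found in 12 members (5.97%) and in 12.8% of cDC2, against 0.603% of endothelial cells. Only 6 members had at least 5 Ccr7 UMIs, with 48, 35, 14, 10, 8 and 7. The members with 48 and 8, from day 7 replicates 2 and 3, also had 30 and 23 UMIs of Fscn1, an actin-bundling protein of mature dendritic cells, only 3 H2-Ab1 UMIs and no Naaa. The members with 35 and 14 had 81 and 99 H2-Ab1 UMIs and neither Fscn1 nor Naaa. The members with 10 and 7 Ccr7 UMIs had 169 and 188 H2-Ab1 UMIs and Naaa in both.

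Il12b, a subunit of interleukin 12, was uneven too. It had 0 and 4.28 CPM in the day 3 sums, 0, 312, 55.4 and 19.9 CPM in the day 7 sums and 0 CPM in all 3 p7N3 sums. The groups overlap, and day 7 replicate 2 holds the highest value together with the member with most Ccr7.

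Cycling was defined as a UMI of at least 3 of 18 cell cycle genes. Pooled over the 19 libraries, it was seen in 39 of 201 cDC1 (19.4%) and in 8.65% of cDC2, whose median of 6543 UMIs is lower, and in 6.97% and 1.78% after thinning each cell to 1500 UMIs. These pooled shares mix groups that hold different numbers of each cell, so the sets were also read within the 9 libraries with at least 10 members. There the mean share was 18.7% ± 7.00 in cDC1 and 9.45% ± 4.85 in cDC2 (SD, n = 9), with cDC1 higher in 8 libraries, and in 6 after thinning. In p7N3 replicate 4 it was 7.14% and 7.5%. Barcodes selected on Ccr7 and Fscn1 had 30.1% ± 25.9, with cDC1 higher in 4 libraries and lower in 5, before and after thinning. At day 3 these barcodes had 71.4% and 78.4%. Their mean Cd74 was 2228 CPM at day 3, below the 3968 CPM of all kept cells, and 15771 CPM at day 7, above 4122 CPM. Lox had 844 CPM in them at day 3, above the 375 CPM of all kept cells. They are therefore not named as dendritic cells at day 3. Against cells selected as MHC class II macrophages (15.8% ± 16.6) cDC1 were higher in 6 libraries, and in 5 after thinning. At day 3 this macrophage set had 46.4% and 43.7%. Its Cd74 there (3853 CPM) was near that of all kept cells (3968 CPM), so it is not a clearly separate population at day 3. Against endothelial cells (50.9% ± 15.7) cDC1 were higher in 0, and in 3 after thinning. In the sums with 10 or more members the share was 23.5% and 25% at day 3, 13.3%, 25%, 10% and 23.5% at day 7, and 23.8%, 17.4% and 7.14% with p7N3. It overlapped between the groups, and the differences did not pass (day 7 against day 3, -6.30 percentage points, n = 4 and 2, exact permutation p = 0.667; p7N3 against day 7, -1.85 percentage points, n = 3 and 4, exact permutation p = 0.857, both adjusted to 0.857). With these numbers the smallest p possible was 0.133 and 0.0571. The share of members with Ccr7 did not pass either (-2.30 percentage points, exact permutation p = 0.533, and -3.06 percentage points, exact permutation p = 0.286, both adjusted to 0.533).

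The share of cDC1 among all kept cells was followed over the time course. It was 0.170% ± 0.0935 (SD, n = 4) at day 0, 0.597% ± 0.368 (n = 3) at day 3, 0.596% ± 0.241 (n = 4) at day 7, 0.291% ± 0.263 (n = 4) at day 21 and 0.567% ± 0.189 (n = 4) with p7N3. Per library it ran from 0.0900% to 0.299% at day 0, from 0.177% to 0.864% at day 3, from 0.335% to 0.919% at day 7, from 0% to 0.635% at day 21 and from 0.315% to 0.761% with p7N3. Day 3 replicate 3 (3 of 1691 cells, 95% Wilson interval 0.0604% to 0.520%) lies far below the other libraries of its group. Day 21 replicate 1 had 0 of 1537 cells, with an upper Wilson limit of 0.249%. These limits cover counting error only.

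None of the 5 comparisons of these shares passed an exact two-sided permutation test. The difference was 0.427 percentage points for day 3 against day 0 (permutation p = 0.114, adjusted 0.429), -5.25e-04 for day 7 against day 3 (p = 1, adjusted 1, by the same permutation), -0.306 for day 21 against day 7 (permutation p = 0.171, adjusted 0.429), 0.121 for day 21 against day 0 (permutation p = 0.457, adjusted 0.762) and -0.0290 for p7N3 against day 7 (permutation p = 0.857, adjusted 1). The groups overlapped in each. The smallest p possible was 0.0571 where day 3 entered and 0.0286 elsewhere.

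The order of the groups depended on the denominator. Among cells with a UMI of Ptprc, the gene of the leukocyte antigen CD45, cDC1 made up 1.48% ± 0.363 at day 0, 0.696% ± 0.411 at day 3, 1.42% ± 0.424 at day 7, 1.46% ± 1.43 at day 21 and 1.18% ± 0.339 with p7N3. Among cDC1 and Cd209a cDC2 together they made up 12.1% ± 4.82, 13.3% ± 7.33, 15.1% ± 2.85, 21.4% ± 20.02 and 13.4% ± 4.65 (SD, n as above). Day 3 thus had the lowest mean among cells with a Ptprc UMI, while day 0 had the lowest among all cells. A Ptprc UMI was found in 1530 of 1967, 1584 of 2137 and 1335 of 1691 cells at day 3. At day 7 it was found in 1515 of 3265, 1127 of 3578, 1055 of 3668 and 1232 of 2903 cells. The part of transcripts from outside the cells in this denominator was not tested.

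**Figure D3:**
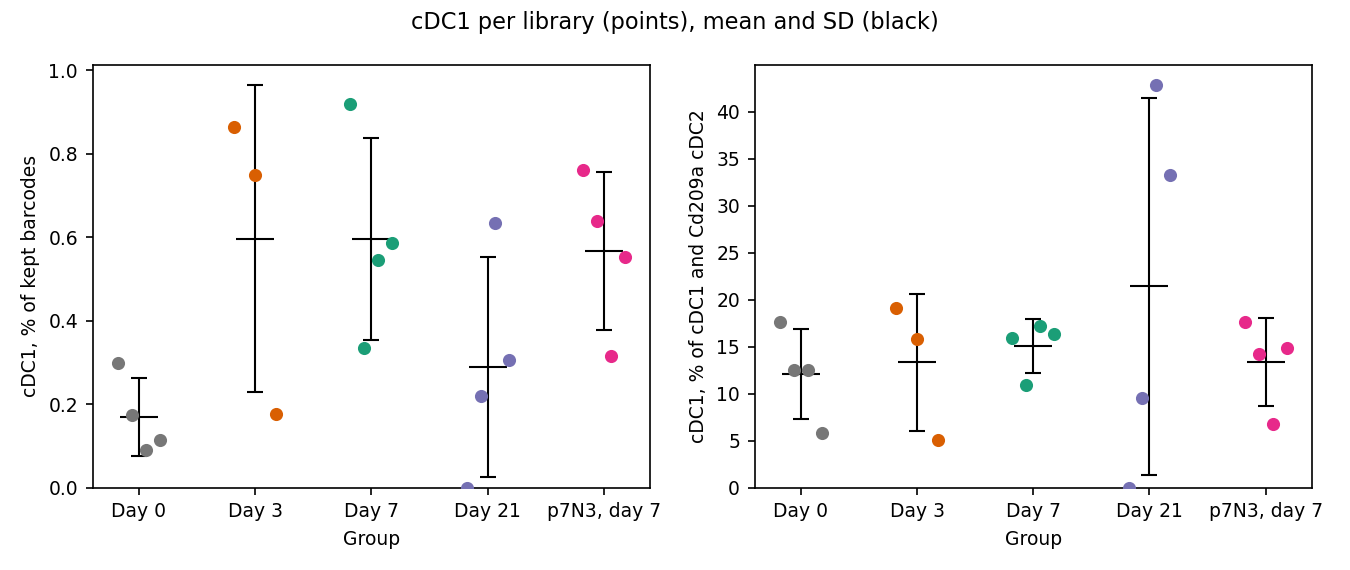
Share of cDC1 in each library (points) as percent of all kept barcodes (left y axis) and as percent of cDC1 and Cd209a cDC2 together (right y axis), by group (x axis), with the mean and SD in black. Day 21 has the widest spread on the right, from 0% to 42.9%.

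Day 7 was then compared with day 3 in the summed transcripts, to ask how the cells differed between these times. In all, 62 of 3098 genes (2%) passed edgeR's quasi-likelihood test at an adjusted p under 0.05, of which 20 (0.646%) were higher and 42 (1.36%) lower at day 7. Without the 14 barcodes with genes of another cell type, 96 of 2871 genes passed (3.34%), 15 higher (0.522%) and 81 lower (2.82%). Of the 62 genes 43 were called both ways, 12 higher and 31 lower, 14 were not called without these barcodes, and 5 were not tested there. Only 2 libraries represent day 3, and day 3 has no replicate 4. With replicates 1 to 3 only, 35 of the 62 genes still passed. The number of calls fell to 15 without day 3 replicate 1, to 25 without day 3 replicate 2, to 29 without day 7 replicate 4 and to 20 where members needed 3 of the 4 markers. A lone day 3 library is assumed to vary like the other groups. The count of higher genes, 20 in all, became 0 without day 3 replicate 1, 1 without day 3 replicate 2, 4 without day 7 replicate 4, 3 with a replicate block and 10 where members needed 3 of the 4 markers. It became 35 without day 7 replicate 2, 45 without the top Scrublet scores, 57 without a filter on low counts and 29 with at least 10 UMIs in every library. Removing the top Scrublet scores took out no day 3 member, and left 11, 18 and 14 members in day 7 replicates 2, 3 and 4. The day 3 barcodes with genes of another cell type thus stayed in that count.

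The genes that rose by day 7 included genes of the lineage itself. Naaa had 682 and 837 CPM in the day 3 libraries and 1703, 1592, 1535 and 1854 CPM in the day 7 libraries, where these and the following CPM are scaled by edgeR's TMM factors. The groups do not overlap, and the p7N3 libraries had 1616 to 1761 CPM. The log2 fold change was 1.14 ± 0.16 (SE, edgeR adjusted p = 0.00354), and 0.92 (edgeR adjusted p = 0.00694) without the 14 barcodes.

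Irf8 had 928 and 971 CPM at day 3 and 1692, 2396, 1535 and 1922 CPM at day 7, again without overlap. Its log2 fold change was 0.99 ± 0.19 (SE, edgeR adjusted p = 0.021), or 0.96 (edgeR adjusted p = 0.00986) without the 14 barcodes. The rise of Irf8 was not particular to cDC1. Its unscaled mean went from 104 to 253 CPM in cDC2 and from 68.8 to 146 CPM in selected macrophages. In barcodes selected on Ccr7 and Fscn1 it went from 23.4 to 234 CPM, and in endothelial cells from 41.5 down to 31.8 CPM. Ifi205, an interferon-inducible gene of this lineage, had 398 and 373 CPM at day 3 and 759, 755, 693 and 718 CPM at day 7 (log2 fold change 0.92 ± 0.18, edgeR adjusted p = 0.0249), or 0.73 (edgeR adjusted p = 0.0424) without the 14 barcodes.

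Tlr3, the endosomal receptor for double-stranded RNA, was low at day 3 with 15.6 and 9.56 CPM, close to the endothelial 10.7 and 12.8 CPM. It had 89.3, 40.6, 107 and 79.1 CPM at day 7. The log2 fold change was 2.58 ± 0.55 (edgeR adjusted p = 0.0345), or 2.20 (edgeR adjusted p = 0.0379) without the 14 barcodes. Of the 18 lineage genes 15 were tested, 4 rose (Naaa, Irf8, Ifi205 and Tlr3) and none fell. Over all genes 0.646% were higher and 1.36% lower. The median log2 fold change of the list was 0.56, against 0.01 over all genes. Again 4 of the 15 rose without the 14 barcodes (0.522% of all genes), and the median was 0.31, against 0.02.

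Other genes that rose included those of a protease inhibitor, a receptor and the cytoskeleton. Cst3 had 11654 and 11418 CPM at day 3 and 20412 to 29751 CPM at day 7 (log2 fold change 1.1 ± 0.17, edgeR adjusted p = 0.00659, and 0.89 with 0.0337 without the 14 barcodes). Slamf7, a receptor of the SLAM family, had 31.2 and 52.6 CPM at day 3 and 106 to 181 CPM at day 7, with at most 1.52 CPM in endothelial cells of day 3 (log2 fold change 1.75 ± 0.39, edgeR adjusted p = 0.039, and 1.53 with 0.0329 without the 14 barcodes). Ckb, the brain type creatine kinase, and Actr3, a subunit of the actin-nucleating Arp2/3 complex, also rose both ways, as did Cxx1a and Malat1. Malat1 was also higher at day 7 over all kept cells (16962 against 8544 CPM). The part of such differences between libraries was not tested. Actr3 falls outside the rule for named genes and was chosen after its values were seen.

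A single gene passed in each of the antigen presentation lists, where 0.646% of all genes were higher. Psmb9, an immunoproteasome subunit, was the only one of 17 MHC class I genes tested to rise (456 and 488 CPM at day 3, 793 to 924 CPM at day 7, log2 fold change 0.82, edgeR adjusted p = 0.0209), with an edgeR adjusted p = 0.0857 without the 14 barcodes. Cd74, the invariant chain, was the only one of 13 MHC class II genes (24439 and 26092 CPM, then 31653 to 41681 CPM, log2 fold change 0.60, edgeR adjusted p = 0.0355), with an edgeR adjusted p = 0.351 without them. The list medians were 0.34 and 0.60, or 0.23 and 0.41 without them. Without the 14 barcodes no gene of either list rose, and Lgmn, a lysosomal protease, fell. Lgmn did not have more than 2 times the endothelial level in both day 3 libraries. H2-Ab1 itself, which was used for selection and is not tested, had 9477 and 9580 CPM at day 3, 15007 to 17829 CPM at day 7 and 15688 to 18886 CPM with p7N3.

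The genes that fell were split by a cut of 2 times their level in the endothelial cells of the same libraries. Of the 31 that were called lower both ways, 8 had more than 2 times the endothelial level in both day 3 libraries. These were Ubald2, Runx3, Csrnp1, Vps37b, Wfdc17, Gpr65, Rilpl2 and Ifitm6, which were chosen after their values were seen. Runx3, a transcription factor, had 164 and 215 CPM at day 3 and 65.2, 56.9, 74.3 and 28.3 CPM at day 7, with 3.05 and 3.66 CPM in endothelial cells of day 3. The log2 fold change was -1.75 ± 0.31 (edgeR adjusted p = 0.0138).

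Gpr65, a receptor that senses protons, had 101 and 90.8 CPM at day 3 and 16.2 to 37.8 CPM at day 7 (log2 fold change -1.65 ± 0.35, edgeR adjusted p = 0.0351), also with 3.05 and 3.66 CPM in endothelial cells. Vps37b, a subunit of the ESCRT-I sorting complex, had 168 and 273 CPM and 22.6 to 73.1 CPM (log2 fold change -1.98 ± 0.40, edgeR adjusted p = 0.0272), with 18.3 and 16.5 CPM in endothelial cells. The secreted protein gene Wfdc17 fell from 1891 and 2142 CPM to 944 to 1405 CPM (log2 fold change -0.86 ± 0.18, edgeR adjusted p = 0.0327), with 346 and 276 CPM in endothelial cells. In these 4 genes day 3 and day 7 do not overlap. Without the 14 barcodes the log2 fold change was -1.93 for Runx3, -1.76 for Gpr65, -2.13 for Vps37b and -1.31 for Wfdc17 (edgeR adjusted p = 0.00373, 0.00986, 0.0014 and 0.000443).

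The other 23 genes called lower both ways were not so far above the endothelial level. The cut does not tell the source of a transcript. Ier3, for example, had 213 to 432 CPM in endothelial cells of day 7 and 65.0 to 124 CPM in cDC1. The day 3 endothelial cells were few (21 and 24), with 9119 ± 2476 CPM of the 6 stromal markers (SD, n = 2). S100a9, a calcium-binding protein abundant in neutrophils, had 737 and 612 CPM at day 3 and 39.6 to 66.0 CPM at day 7, with 587 and 542 CPM in endothelial cells of day 3 (log2 fold change -3.76 ± 0.40, edgeR adjusted p = 0.000416, and -3.76 with 1.82e-05 without the 14 barcodes). S100a8 had 725 and 822 CPM and 33.0 to 65.2 CPM, with 711 and 588 CPM in endothelial cells. Retnlg, another neutrophil gene, had 74.1 and 143 CPM at day 3 and 0 in each day 7 library, with 85.4 and 128 CPM in endothelial cells. The part that transcripts from outside the cells had in these differences was not tested.

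The metallothionein genes and several chemokine genes fell as well, by sizes that depended on the 14 barcodes. Mt2 had 2601 and 1473 CPM at day 3 and 24.4 to 110 CPM at day 7 (log2 fold change -4.89 ± 0.40, edgeR adjusted p = 0.00012), but 164 and 295 CPM at day 3 without these barcodes (log2 fold change -2.23, edgeR adjusted p = 0.00986). Endothelial cells of day 3 had 1991 and 630 CPM. Cxcl1, a neutrophil chemoattractant, had 947 and 387 CPM and 16.5 to 48.1 CPM (log2 fold change -4.33 ± 0.41, edgeR adjusted p = 0.000259), but 108 and 217 CPM at day 3 without the barcodes (log2 fold change -2.78, edgeR adjusted p = 0.00166), beside 486 and 394 CPM in endothelial cells. Timp1, an inhibitor of metalloproteinases, had 3458 and 368 CPM at day 3, but 87.4 and 150 CPM without them, beside 624 and 227 CPM in endothelial cells. Its direction turned where members needed 3 of the 4 markers (log2 fold change 1.22). Others called in both ways were Prg4, Cxcl14 and the monocyte chemoattractants Ccl2 and Ccl7. Nupr1, Ptgs2 and Fads3 were called with all members and not tested without the 14 barcodes.

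Of 20 cytokines and chemokines 11 were tested, 3 fell (Ccl2, Cxcl2 and Ccl6) and none rose, with a list median of -1.62 (all genes 0.01, of which 1.36% were lower). With the 14 barcodes left out 5 fell, Il1b and Ccl4 in addition, and the median was -1.98 (all genes 0.02, 2.82% lower). Cxcl2 had 522 and 870 CPM at day 3 and 0 to 149 CPM at day 7, beside 454 and 496 CPM in endothelial cells (edgeR adjusted p = 0.0138). Of 16 immediate early and heat shock genes, all tested, the nuclear receptor Nr4a1 fell (292 and 363 CPM, then 65.0 to 82.5 CPM, log2 fold change -2.15 ± 0.30, edgeR adjusted p = 0.00354, endothelial 107 and 209 CPM). Zfp36 and Junb fell as well without the 14 barcodes (log2 fold change -1.14 and -0.77, edgeR adjusted p = 0.00785 and 0.0328). Neither had more than 2 times the endothelial level in both day 3 libraries, while Il1b and Ccl4 had. Of 12 TGF beta and CD47 genes 4 were tested and Thbs1, which encodes thrombospondin 1, fell (97.5 and 617 CPM, then 8.25 to 75.5 CPM, edgeR adjusted p = 0.0438, endothelial 195 and 78.7 CPM). Skil, a repressor of TGF beta signalling, fell too without the 14 barcodes (log2 fold change -1.51, edgeR adjusted p = 0.0329).

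No gene passed in the remaining lists. These were maturation and migration (8 of 18 tested, median log2 fold change -0.19), receptors (8 of 15, median 0.01), interferon-stimulated (4 of 18, median -0.08), cell cycle (9 of 18, median 0.08) and hypoxia and glycolysis (8 of 14, median -0.66). The untested members were too low for the filter. Several of these medians depended on the 14 barcodes. Without them they were -0.36 for maturation and migration, -0.09 for receptors, -0.31 for interferon-stimulated, 0.63 for cell cycle and -0.02 for hypoxia and glycolysis. Without the 14 barcodes, Cd83 fell in the maturation list, and in the receptor list Csf2rb fell and the chemokine receptor Cxcr3 rose (7.10 and 12.8 CPM at day 3 and 38.9 to 76.2 CPM at day 7, unscaled, with all members). Over all genes 0.522% were higher and 2.82% lower without these barcodes.

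**Figure D4:**
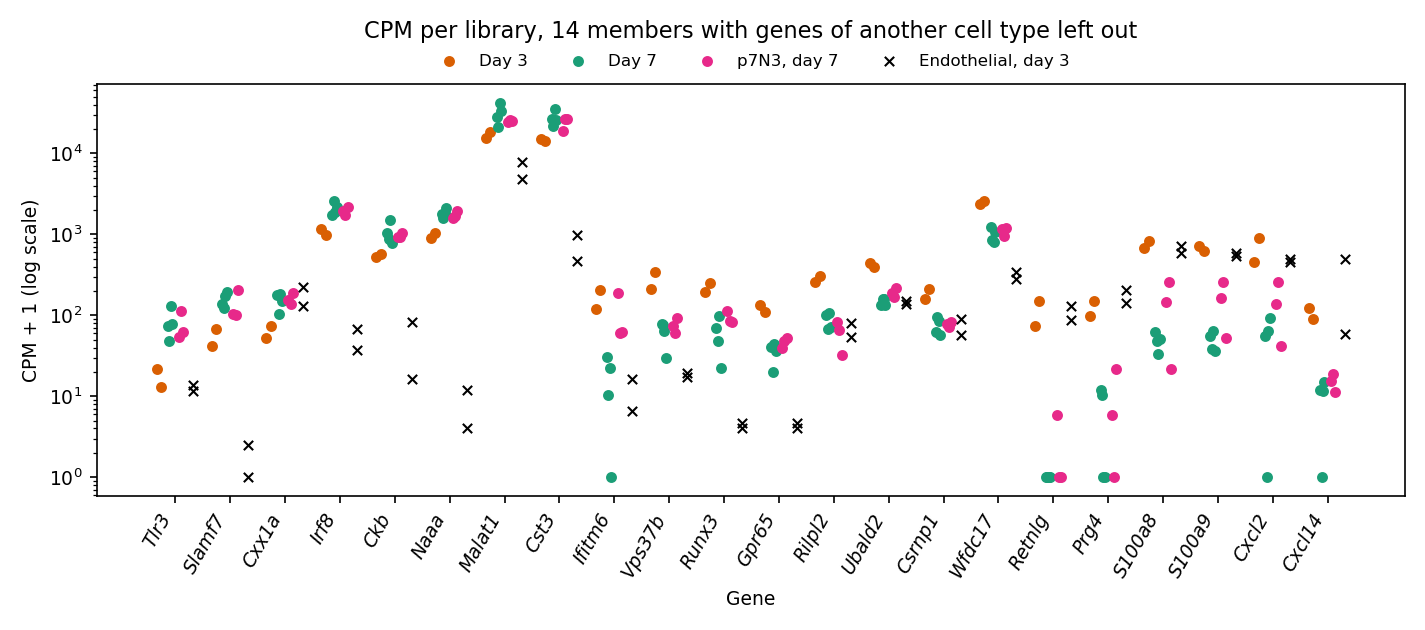
CPM plus 1 (y axis, log scale) of genes called both with and without the 14 barcodes (x axis), in cDC1 sums without these barcodes, 1 point per library, with crosses for endothelial cells of day 3. From Ifitm6 to Wfdc17 the day 3 points lie above the crosses, and from Retnlg to Cxcl14 they do not lie above them by 2 times in both libraries. The points are scaled by TMM factors and the crosses are not.

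The same genes were read in the other cells of these libraries. Of the 20 genes that were higher at day 7 in cDC1, 19 had a higher mean in cDC2, 18 in macrophages and 12 in endothelial cells, against 53%, 36.5% and 49.9% of all 3098 genes tested. Of the 42 lower genes, 37, 41 and 38 had a lower mean, against 47%, 63.4% and 49.9%. At day 3 the cells selected as macrophages were close to all kept cells in Cd74 (3853 and 3968 CPM), Lox (360 and 375 CPM) and Cxcl14 (965 and 1018 CPM). In S100a8 they were lower (1366 and 2140 CPM). The counts for macrophages are therefore not those of a clearly separate population at day 3. The difference between cDC1 and cDC2 was tested as an interaction with the library as a block. In all 54 of 6337 genes (0.852%) had a lower log2 fold change from day 3 to day 7 in cDC1 than in cDC2, and none a higher one by edgeR, with an unadjusted p under 0.05 for 610 genes in either direction. Without barcodes with genes of another cell type in either set 27 of 5065 genes (0.533%) did. The total was 23 without day 3 replicate 1 (4 of them higher in cDC1), 26 without day 3 replicate 2, 28 without day 7 replicate 4, 35 without day 7 replicate 3, 23 with DESeq2 and 5 (1 higher) with at least 10 UMIs in every sum. Without day 7 replicates 1 and 2 in turn it was 49 (1 higher) and 47 (6 higher).

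Ccl4, a chemoattractant for monocytes and lymphocytes, was among the 5 genes with the smallest p. It had 383 and 1105 CPM at day 3 and 146 to 275 CPM at day 7 in cDC1, and 302 and 202 CPM at day 3 and 545 to 819 CPM at day 7 in cDC2. The levels thus ran in opposite directions. The interaction was -3.02 ± 0.44 (SE, log2, edgeR adjusted p = 0.00368), and -2.94 (edgeR adjusted p = 0.000969) without such barcodes. Endothelial cells had 64.8 ± 24.2 CPM at day 3. Mt1 had an interaction of -2.24 ± 0.26 (edgeR adjusted p = 0.000431), and -1.48 (edgeR adjusted p = 0.0129) without them. Mt2 (-4.09), Lox (-3.35) and Cxcl1 (-4.02) did not pass without them (edgeR adjusted p = 0.079, 0.993 and 0.0746).

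**Figure D5:**
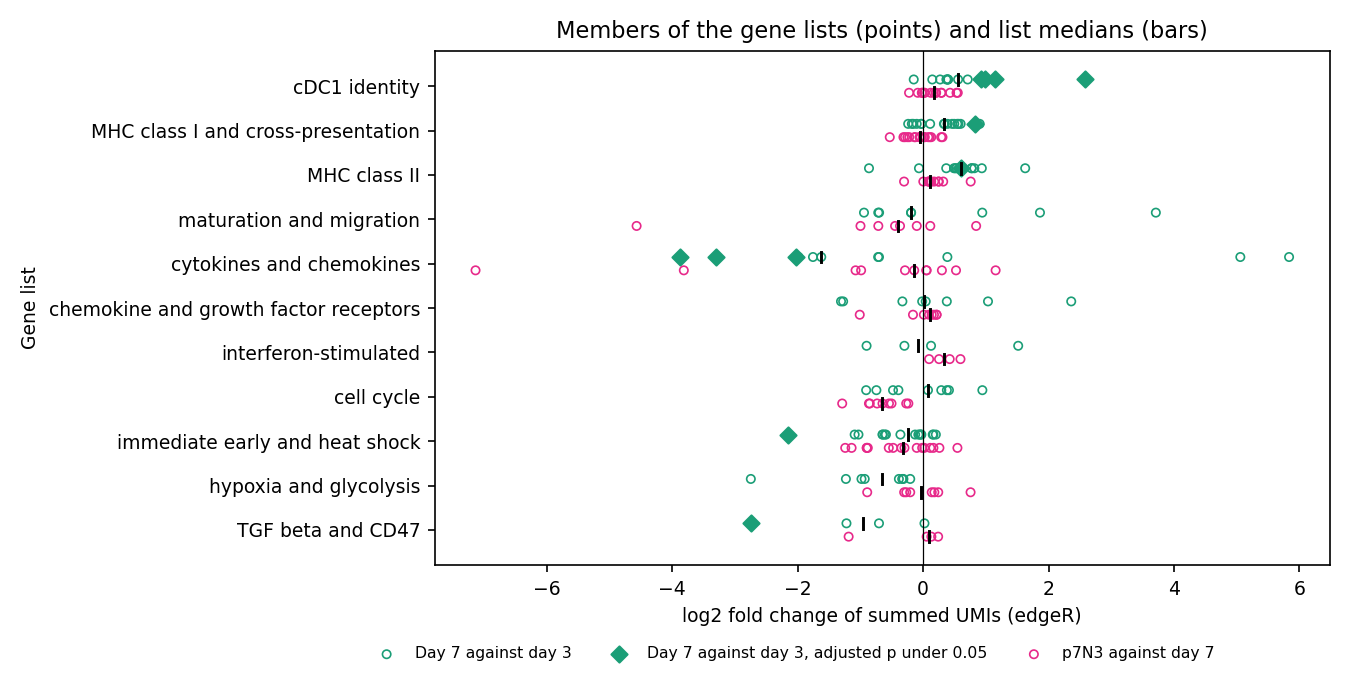
Log2 fold change of the summed UMIs (x axis) of each tested gene in 11 lists (y axis), for day 7 against day 3 and p7N3 against day 7, with filled diamonds for an adjusted p under 0.05 and black bars for list medians. The 4 filled points of the cDC1 lineage list lie right of 0 and the 3 of cytokines and chemokines left of it, and no p7N3 point is filled.

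The peptide group was compared with day 7 to ask whether CD47 activation was accompanied by a change in these cells. No gene of 3098 passed (0%), with all members or without the 14 barcodes. An unadjusted p under 0.05 was reached by 159 of the 3098 genes, and by 118 of 2871 without those barcodes. By chance alone about 1 in 20 would reach it. DESeq2 called 0. Other choices gave calls, each out of its own number of tested genes. Libraries with at least 20 members gave 50 genes (13 higher and 37 lower). Of the 2 groups these were only day 7 replicates 1 and 3 (30 and 20 members) and p7N3 replicates 1 and 2 (21 and 23). There were 20 (2 and 18) where members needed 3 of the 4 markers, 70 (17 and 53) without a filter on low counts and 2 (both higher) without p7N3 replicate 4. The interaction of p7N3 with cell type also called none of 6337 genes by edgeR (259 at an unadjusted p under 0.05). Cd47, which encodes the receptor itself, had 492, 709, 409 and 472 CPM at day 7 and 616, 539 and 543 CPM with p7N3 (unscaled), a log2 fold change of 0.13 ± 0.17 (SE, edgeR adjusted p = 1). Tgfb1 had 164, 140, 62.4 and 124 CPM and 157, 135 and 95.9 CPM, a log2 fold change of 0.06 ± 0.28 (edgeR adjusted p = 1). The groups overlap in both genes. Markers of other cell types differed between these sums. The neutrophil markers, led by S100a8 or S100a9 and with Ly6g at 0, had 302, 467 and 79.9 CPM with p7N3 and 77.9 to 104 CPM at day 7, beside 118 to 212 and 45.3 to 133 CPM in endothelial cells. The erythrocyte markers, led by Hbb-bs, had 12965 CPM in p7N3 replicate 1, or 171 CPM without the 14 barcodes, and the stromal markers 11768 CPM in p7N3 replicate 4, or 1493 CPM without them. The part of these transcripts in the comparison was not tested.

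No lineage gene passed with p7N3. The log2 fold change was 0.02 ± 0.13 for Naaa, 0.02 ± 0.16 for Irf8 and -0.01 ± 0.23 for Wdfy4, and 0.43 ± 0.15 for Ifi205 (SE, edgeR adjusted p = 1, 1, 1 and 0.832). Ifi205 had 817, 1176 and 969 CPM with p7N3, above the 4 day 7 libraries without overlap. Without the 14 barcodes the groups overlap (824 to 1173 and 799 to 863 CPM), with a log2 fold change of 0.33 (edgeR adjusted p = 1). The median of the lineage list was 0.17, against -0.01 over all genes, and 0.02 without the 14 barcodes (all genes -0.01). In simulated data of this comparison, 26% of genes changed by 2-fold and 80% of those changed by 4-fold were called.

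Day 21 could be compared with day 7 only when libraries with 5 members were admitted, which gave 2 day 21 libraries with 6 members each. Here 48 of 3016 genes (1.59%) passed, 33 higher and 15 lower at day 21. Day 21 replicate 4 holds 1 of the 14 barcodes, which gave 35.3% of its UMIs. Without these barcodes 60 of 2360 genes passed (2.54%), 52 higher and 8 lower, and 39 were called both ways. Of the 33, 21 encode ribosomal proteins, as did 93 of the 3016 genes tested (3.08%). Of the 52 called without the 14 barcodes 34 did, and 94 of the 2360 tested (3.98%). The CPM given in this comparison are unscaled, at day 21 and at day 7. Rplp1 had 6517 and 5770 CPM at day 21 and 2196 to 3019 CPM at day 7 (log2 fold change 1.36 ± 0.15, edgeR adjusted p = 0.000793). It was also higher in cDC2 at day 21 (4546 ± 242 against 2487 ± 106 CPM, n = 4 and 4). Of the 33 genes 31 had a higher mean in cDC2 and 26 in endothelial cells, against 33.5% and 35.6% of all 3016 genes tested. The higher genes also held Gm42418 (652 and 467 CPM at day 21, 146 to 274 CPM at day 7) and AY036118 (398 and 299 CPM, then 27.7 to 110 CPM). Over all kept cells Gm42418 had 1170 ± 366 CPM at day 21 and 255 ± 59.5 CPM at day 7, and AY036118 had 432 ± 345 and 69.6 ± 30.1 CPM (SD, n = 4 and 4). The part of such differences between libraries in the day 21 result was not tested.

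Among the lower genes Ifitm1, an interferon-induced membrane protein, had 121 and 252 CPM at day 21 and 1614 to 3567 CPM at day 7 (log2 fold change -3.54 ± 0.51, edgeR adjusted p = 0.00582). In cDC2 it had 411 ± 476 and 2601 ± 554 CPM, and in endothelial cells 12.9 ± 1.01 and 13.9 ± 4.95 CPM. Over all kept cells it had 32.4 ± 4.39 and 172 ± 72.0 CPM, and all 15 lower genes had a lower mean over all kept cells, as had 69% of the genes tested. Psmb8, an immunoproteasome subunit, had 640 and 952 CPM at day 21 and 1365 to 1822 CPM at day 7 (log2 fold change -0.81 ± 0.18, edgeR adjusted p = 0.0446), with an edgeR adjusted p = 0.238 without the 14 barcodes. A530099J19Rik, one of the genes that set cDC1 apart from cDC2, had 193 and 149 CPM at day 21 and 38.9 to 84.4 CPM at day 7 (edgeR adjusted p = 0.0328), and was at 0 in cDC2 of both groups. These genes were chosen after their values were seen. At day 0 the 6 members pooled gave 272 CPM of Xcr1, 326 CPM of Wdfy4 and 10337 CPM of H2-Ab1, with no replicate check.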

How the data were processed

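Counts of UMIs per gene and barcode, deposited by the authors as 10x matrices without normalization, were used for all 19 libraries. According to the study and the submitters' processing notes the reads were aligned with Cell Ranger, and Seurat was used downstream. The notes list mm10 for 4 samples and GRCh38 for 15, while the genes are those of mouse and the study gives mm10. The members and gene lists were chosen with earlier results of these data known. UMIs were summed per library over members, in libraries with at least 10, and tested with edgeR 4.0.16 (quasi-likelihood, TMM factors, filterByExpr, Benjamini-Hochberg adjustment, all groups in 1 fit). The 6 selecting genes were left out of the tests. Alternatives included DESeq2 1.42.0. Shares were compared with exact two-sided permutation tests over libraries. CPM ratios between cell sets used log2(CPM + 10). Named were, per direction, the 12 genes with the largest change past the test, without overlap and with a mean of at least 20 CPM, up to 4 genes of each list, the 5 interaction genes with the smallest p and the 20 genes highest above cDC2. Doublets were not removed from the main analysis. In simulated data of day 7 against day 3, 24% of 2-fold and 68% of 4-fold changes were recovered. Gene positions are from GENCODE on GRCm38. Some genes are not reported here.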

Additional observations from a re-analysis of the deposited data

Results flagged for a closer look

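In the day 7 libraries 4 genes had 1 library far from the others, of 67 groups of values looked at, where chance gives about 1 in 20. Ier3 was lowest in replicate 2 at 65.0 CPM, against 116 to 124 CPM in the others. Cd74 was lowest in replicate 2 at 31653 CPM, against 39985 to 41681 CPM. Mif was lowest in replicate 1 at 182 CPM, against 294 to 309 CPM. Nupr1 was at 17.0 CPM in replicate 4 and at 0 in the others. No explanation of these values was tested.

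The change from day 3 to day 7 differed between cDC1 and Cd209a cDC2 in an edgeR interaction test for the 5 genes named by the smallest p. The interaction was -4.09 for Mt2, -2.24 for Mt1, -3.35 for Lox, -4.02 for Cxcl1 and -3.02 for Ccl4 on the log2 scale, and only those of Mt1 and Ccl4 passed without barcodes with genes of another cell type in either set.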

How the results depend on the processing

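The count of genes called for day 7 against day 3 (62) became 225 without a filter on low counts, 164 without the top Scrublet scores, 96 without the 14 barcodes (chosen after seeing the data), 39 with a replicate block and 20 with at least 3 of the 4 markers. Leaving out 1 library gave 15 to 82. Removing the top Scrublet scores took out members of day 7 and no day 3 member. With 3 of the 4 markers, Timp1 (1.22), Sgk1 (0.48), Mif (0.63), Gpx3 (2.1) and Ppp1r14b (0.10) turned positive. The interaction count (54) became 27 without barcodes of another cell type in either set, 23 with DESeq2, 5 with at least 10 UMIs in every sum and 23 to 49 leaving out 1 library. For p7N3 the count of 0 became 70 without the filter and 20 with 3 of the 4 markers. It became 50 with at least 20 members, where only day 7 replicates 1 and 3 and p7N3 replicates 1 and 2 remained. With 1 library left out it was 0 to 2, in the sums and in the interaction. The cause of these shifts was not tested.

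Same-numbered day 7 and p7N3 libraries deviated with correlations of 0.0501, 0.206 and -0.00881, so the numbers were not taken as pairs. The block also gave 0.00303 for the share of day 7 against day 3.

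Share differences that turned (percentage points) were, for day 3 against day 0, -0.00185 after thinning, -0.783 of Ptprc cells and -0.103 without members with 3 or more C1q UMIs. For day 7 against day 3 they were 0.0331 (thinned), 0.728 (Ptprc), 1.77 (of cDC1 and cDC2), 0.00672 (at most 10% mitochondrial UMIs), 0.0648 (3 of 4 markers), 0.478 (without C1q), 0.0388 (without the 14) and 0.00303 (replicates 1 to 3). Day 21 against day 7 turned to 0.0349 (Ptprc) and 6.32 (cDC1 and cDC2), and day 21 against day 0 to -0.0196 (Ptprc). Cycling turned to 1.65 for day 7 against day 3 (thinned), and to 2.07 (Scrublet) and 2.31 (without the 14) for p7N3. The Ccr7 share turned to 4.17 (thinned) and 2.51 (at least 2 UMIs) for day 7 against day 3.

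Leaving out 1 library, the shares ranged from 0.293 to 0.637 for day 3 against day 0, -0.210 to 0.133 for day 7 against day 3, -0.421 to -0.198 for day 21 against day 7, 0.00615 to 0.218 for day 21 against day 0 and -0.116 to 0.0785 for p7N3. Cycling ranged from -8.64 to -3.64 and, for p7N3, -5.70 to 2.63, and Ccr7 from -3.34 to -1.12 and -4.71 to -1.14. The sums of day 7 against day 3 could not be fitted without members with 3 or more C1q UMIs or with at least 20 members. Day 0 libraries held too few members for sums.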
